A study of Mus musculus with 12 samples.

Results

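The antiviral interferon-stimulated genes are transcripts that cells switch on when interferon binds its receptor. They were examined here as a fixed list of 36 mouse symbols matched to the 55401 Ensembl genes of a bulk RNA-seq table. All 36 were found by Ensembl identifier and all 36 passed the filter on low counts that kept 20818 genes. The list leaves out guanylate-binding proteins, immunity-related GTPases, interferon regulatory factors and antigen presentation genes. It was chosen with earlier results of these data known, so counts of its calls describe the list and do not test it.

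The 12 libraries came from subcutaneous tumors of TC2Ras, a mouse prostate cancer cell line, taken 21 days after 125000 cells were injected per flank. Each library was the pooled left and right tumor of 1 mouse, and 4 groups of 3 mice were made. Control tumors grew from TC2Ras cells alone in mice with 0 ppb inorganic arsenic (iAs) in the drinking water, and A300 tumors grew from the same cells in mice drinking 300 ppb iAs. ASC tumors were seeded with 1% ASC-GFP, primary adipose stromal cells from male C57BL/6 mice carrying a ubiquitin promoter GFP transgene, at 0 ppb iAs, and ASC300 tumors combined this with 300 ppb iAs. All mice had received low-arsenic chow and purified water before injection, and the sources used here give neither their strain nor their sex and age. The labels name stromal cells as the cell type, while the protocol describes excised tumors, so the libraries were treated as tumors. The libraries held between 39157647 (ASC replicate 2) and 55168642 (A300 replicate 3) counts. Of the epithelial markers, Krt8 was present in every tumor at 24.1 CPM or more, but Epcam did not exceed 1.34 CPM and Krt18 reached 19.7 CPM in Control replicate 1 only, against at most 1.39 CPM elsewhere. The summed fibroblast and stromal markers stood at 5340 to 10100 CPM in every group's tumors. Skeletal muscle markers summed to 1460 CPM in Control replicate 2 and 1480 CPM in A300 replicate 1, against at most 295 CPM in the other 10 tumors, and B cell markers to 172 CPM in Control replicate 1, against at most 12.1 CPM elsewhere.

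Type I interferons act through the receptor pair Ifnar1 and Ifnar2 and the kinases Jak1 and Tyk2, which activate transcription factors, Stat2 and Irf9 among them. These bind the interferon-stimulated response element (ISRE) in the promoters of their target genes, whose products sense viral RNA, degrade it, block its translation or trap virus particles. Interferon gamma, the type II interferon, acts at another element, the gamma-activated site (GAS), and many target genes respond to both kinds of interferon.

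Tumors with ASC had higher levels of the antiviral genes than tumors without. Over both iAs levels, 6 tumors with ASC against 6 without, 27 of the 36 members rose and none fell, where 1.36% of all tested genes were called higher. A call required an adjusted p-value under 0.05 (edgeR quasi-likelihood test, Benjamini-Hochberg over all tested genes) and a change of at least 1.5-fold. The median log2 fold change of the members was 1.11 (2.15-fold), against -0.0042 over all tested genes. Every member had a positive value, from 0.48 for Helz2 to 1.61 for Xaf1. Of the 27 calls, 19 held under every alternative setting, and the other 8 (Ddx58, Ifit1, Mx1, Mx2, Oas1b, Oas1g, Rsad2 and Usp18) were all lost without ASC300 replicate 3. In 24 members all 6 tumors with ASC lay above all 6 without, which was so for 1.68% of all tested genes. As each library is a different mouse, the p-values measure the spread between mice. In bulk tumor RNA, more cells of a type and more RNA per cell cannot be told apart.

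**Figure D1:**
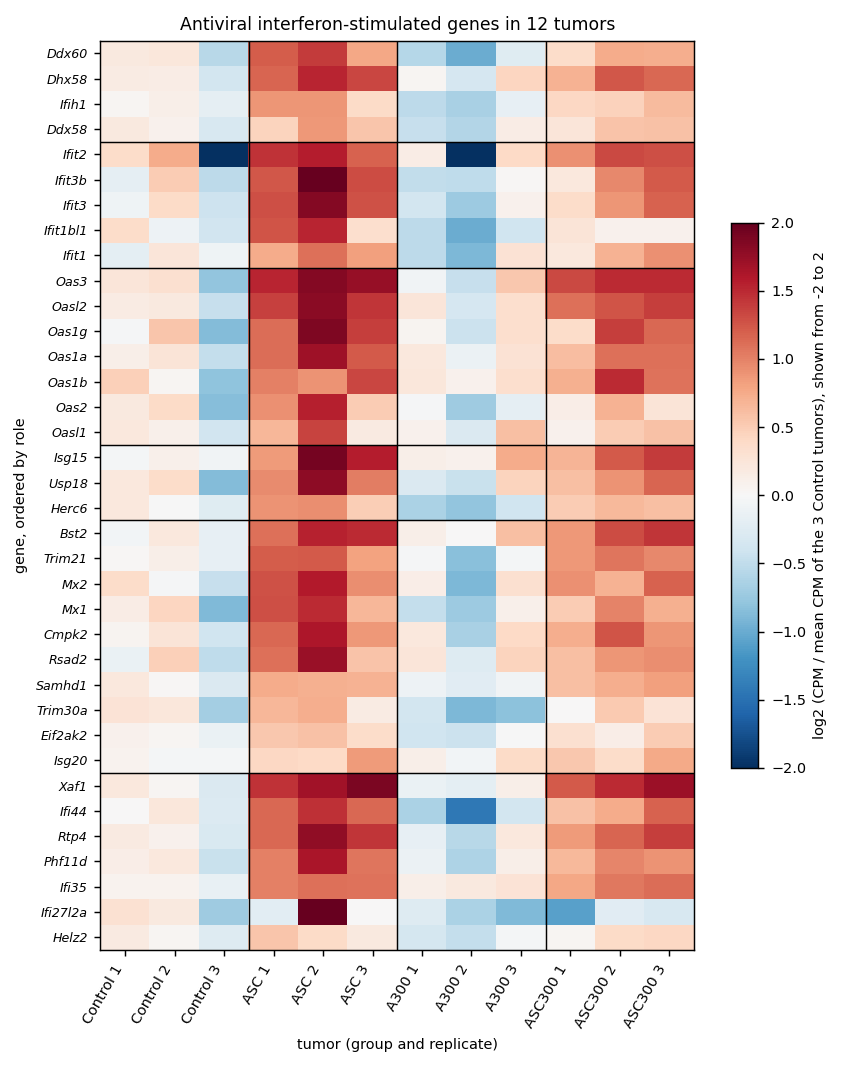
Level of the 36 members (rows, grouped by role) in each of the 12 tumors (columns), as log2 of the CPM over the mean CPM of the 3 Control tumors, with red above and blue below that mean. The ASC and ASC300 columns are red for most genes, ASC replicate 2 is the darkest, and the 2 darkest blue cells are Ifit2 in Control replicate 3 and A300 replicate 2.

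The promoters of the members were read to show which of these elements they hold. RefSeq promoters (GRCm38.p6, 250 bases before to 50 after a transcript start) were present for 28 of the 36 members. The ISRE core, searched as GAAANNGAAA on both strands with overlapping matches counted, was found for 16 of the 28 (57.1%) and for 3.99% of all 27025 genes with a promoter. The GAS letters, TTCNNNGAA, whose complement reads the same, were found for 7 of the 28 (25%) and for 9.55% of all genes. Among the 14 type II reference genes with a promoter, such as Gbp2 and Irf1, the shares were 50% for the ISRE core and 42.9% for GAS. The stretches below, 5′ to 3′ on the gene's strand, are shown because they hold the ISRE core close to the start of members described in the text, and the capitals mark the bases of the matches. Where a match begins with T, the core lies on the other strand.
Isg15: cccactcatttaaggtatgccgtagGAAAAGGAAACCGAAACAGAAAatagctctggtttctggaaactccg
Ifit1: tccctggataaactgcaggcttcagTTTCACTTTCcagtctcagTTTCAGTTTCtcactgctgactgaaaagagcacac
Ifit3: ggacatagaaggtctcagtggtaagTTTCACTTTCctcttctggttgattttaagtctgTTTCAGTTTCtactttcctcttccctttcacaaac
Ifit3b: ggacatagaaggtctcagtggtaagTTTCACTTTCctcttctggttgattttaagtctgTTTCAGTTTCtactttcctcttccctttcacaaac
Oas1a: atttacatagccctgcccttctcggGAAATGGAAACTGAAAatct
Oas3: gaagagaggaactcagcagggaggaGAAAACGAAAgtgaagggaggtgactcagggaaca
Bst2: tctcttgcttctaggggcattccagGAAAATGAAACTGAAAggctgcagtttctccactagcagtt
Ddx60: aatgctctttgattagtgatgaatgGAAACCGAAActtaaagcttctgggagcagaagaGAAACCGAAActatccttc

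These stretches lie at chr4:156200850-156200921 on the minus strand for Isg15, chr19:34640760-34640838 on the plus strand for Ifit1, chr19:34583348-34583441 and chr19:34607744-34607837 on the plus strand for Ifit3 and Ifit3b, chr5:120907526-120907570 on the minus strand for Oas1a, chr5:120777700-120777759 on the minus strand for Oas3, chr8:71537562-71537627 on the minus strand for Bst2 and chr8:61928009-61928086 on the plus strand for Ddx60. All of them end before the transcript start of the RefSeq entry. Isg15 held 3 overlapping matches, Oas3 held 1, and each of the others held 2. The stretch of Ifit3 was identical to that of Ifit3b. The 16 members with the ISRE core had a median log2 fold change of 1.12 (0.55 to 1.54), and the 12 without it 1.03 (0.48 to 1.61). Xaf1, with the largest change of all members, was among those without these letters in the window.

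**Figure D2:**
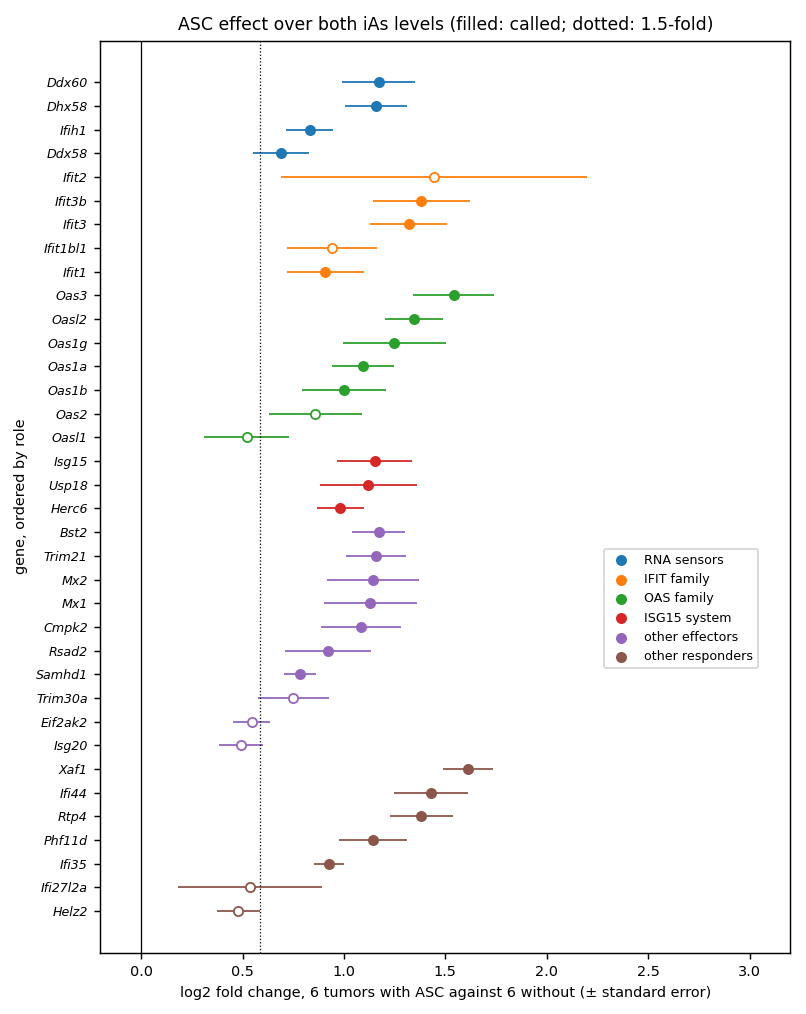
Log2 fold change of each member, 6 tumors with ASC against 6 without, with bars of 1 standard error, grouped by role. Filled points are the 27 called members and open points the 9 others; all points lie right of 0, and Ifit2 and Ifi27l2a carry the widest bars.

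Of the 4 cytosolic RNA sensors all were called higher, 3 of them under every alternative setting. Ddx58 (RIG-I) and Ifih1 (MDA5) detect viral double-stranded RNA, Dhx58 (LGP2) modulates both, and Ddx60 is a related helicase. Ddx60 stood at 9.18, 9.33 and 5.42 CPM (counts scaled to a common library size) in Control, 18.4, 21.1 and 13.6 in ASC, 5.38, 4.01 and 6.73 in A300, and 10.3, 13.3 and 13.2 in ASC300. All tumors with ASC lay above all tumors without, and each ASC300 tumor lay below each ASC tumor. Its log2 fold change over both iAs levels was 1.17 ± 0.18 (SE, adjusted p = 0.00315). Dhx58 followed with 1.16 ± 0.15 (adjusted p = 0.00103), Ifih1 with 0.83 ± 0.12 (adjusted p = 0.0015) and Ddx58 with 0.69 ± 0.14 (adjusted p = 0.0204). Ddx58 lost its call without Control replicate 3, ASC replicate 2, A300 replicate 1 or 2, or ASC300 replicate 2 or 3 (adjusted p up to 0.0662).

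Of the 5 members of the IFIT family, proteins that bind viral RNA and hinder its translation, 3 were called. Ifit3 stood at 18.9, 26.4 and 15.2 CPM in Control, 49.5, 72.1 and 48.9 in ASC, 15.6, 12.2 and 21.4 in A300, and 26.04, 37.2 and 45.7 in ASC300. The 2 groups at 0 ppb did not overlap, and those at 300 ppb did not either, while ASC300 replicate 1 lay just below Control replicate 2. Its log2 fold change was 1.32 ± 0.19 (adjusted p = 0.00185). Ifit3b stood at 5.02, 8.15 and 3.97 CPM in Control, 13.5, 24.7 and 14.1 in ASC, 4.05, 4.03 and 5.81 in A300, and 6.59, 11.1 and 13.3 in ASC300, with the same overlap. Its log2 fold change was 1.38 ± 0.24 (adjusted p = 0.00747). The pair cannot be told apart with certainty, since 41.1% of the 75-base stretches of Ifit3 also occur in Ifit3b, and the sum of both rose by 1.33 on the log2 scale (adjusted p = 0.00217).

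Ifit1 stood at 14.7, 19.9 and 15.8 CPM in Control, 28.0, 36.3 and 29.6 in ASC, 11.7, 9.06 and 20.5 in A300, and 19.5, 27.2 and 31.5 in ASC300. Its log2 fold change was 0.91 ± 0.19 (adjusted p = 0.0245), with ASC300 replicate 1 below the highest tumors without ASC. The call was lost in 6 of the fits that left out 1 tumor: Control replicate 1 or 3, ASC replicate 2, A300 replicate 1, or ASC300 replicate 2 or 3 (adjusted p up to 0.0809). Ifit1bl1 was the least abundant member per length, with a median of 1.39 RPKM in tumors with ASC. It stood at 3.31, 2.40 and 1.97 CPM in Control, 6.11, 7.37 and 3.24 in ASC, 1.78, 1.29 and 1.94 in A300, and 3.05, 2.73 and 2.71 in ASC300. The ASC300 tumors lay within the range of the Control tumors, and its value of 0.94 ± 0.22 missed the threshold (adjusted p = 0.0566). The sum of Ifit1 and Ifit1bl1 was called, with a log2 fold change of 0.92 (adjusted p = 0.0151).

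Ifit2, singled out after its values were seen, held few counts in 2 tumors. It stood at 30.6, 39.4 and 0.933 CPM in Control, 64.3, 70.1 and 53.4 in ASC, 26.3, 0.266 and 31.1 in A300, and 44.7, 59.2 and 57.6 in ASC300. Control replicate 3 held 43 counts and A300 replicate 2 held 13, against 1053 to 3177 in the other 10 tumors. In Ifit1 and Ifit3 the same 2 tumors were at 15.8 and 9.06 CPM and at 15.2 and 12.2 CPM. All tumors with ASC lay above all those without, but the log2 fold change of 1.44 ± 0.75 was not called (adjusted p = 0.538). The few counts were thus seen in 1 tumor of each group without ASC, and whether they reflect the transcript or the way it was counted cannot be told from the deposited table.

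The OAS family comprises 2′-5′ oligoadenylate synthetases, whose product activates the nuclease RNase L, and related proteins. Of its 7 members, 5 were called higher. Oas3 stood at 9.63, 10.2 and 4.71 CPM in Control, 23.6, 29.3 and 27.3 in ASC, 7.76, 5.95 and 11.9 in A300, and 20.4, 22.9 and 23.0 in ASC300. The groups with and without ASC were far apart at both iAs levels, and the log2 fold change was 1.54 ± 0.20 (adjusted p = 0.000852). Oasl2 stood at 33.8, 34.5 and 21.9 CPM in Control, 77.5, 105.3 and 80.6 in ASC, 35.5, 23.9 and 38.1 in A300, and 64.2, 71.9 and 78.7 in ASC300. Its log2 fold change was 1.34 ± 0.14 (adjusted p = 0.000162).

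Oas1a and Oas1g are near copies, with 47.6% of the 75-base stretches of Oas1a also in Oas1g, so that their counts are uncertain one by one. Oas1a stood at 15.9, 17.6 and 10.6 CPM in Control, 32.0, 47.6 and 34.5 in ASC, 17.0, 13.6 and 17.9 in A300, and 22.4, 31.7 and 31.5 in ASC300. Oas1g stood at 5.29, 7.87 and 2.93 CPM in Control, 11.7, 19.6 and 13.9 in ASC, 5.58, 3.99 and 6.76 in A300, and 6.92, 14.0 and 11.9 in ASC300. In both genes ASC replicate 2 was the highest tumor and ASC300 replicate 1 the lowest of those with ASC. The log2 fold changes were 1.09 ± 0.15 for Oas1a (adjusted p = 0.00148) and 1.25 ± 0.25 for Oas1g (adjusted p = 0.0224), and the sum of both changed by 1.14 (adjusted p = 0.00288). Oas1b was called as well, at 1.00 ± 0.21 (adjusted p = 0.0254). Oas1g lost its call without ASC replicate 2, A300 replicate 1 or 2, or ASC300 replicate 2 or 3 (adjusted p up to 0.0721), and Oas1b lost its call without Control replicate 2, ASC replicate 1 or 3, any A300 tumor, or ASC300 replicate 2 or 3, and with the replicate number as a block (adjusted p up to 0.0784). Oas2 at 0.86 ± 0.23 (adjusted p = 0.101) and Oasl1 at 0.52 ± 0.21 (adjusted p = 0.37) were not called.

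All 3 members of the ISG15 system were called higher, Isg15 and Herc6 under every alternative setting. Isg15 is a ubiquitin-like protein attached to other proteins, Herc6 is the mouse ligase that attaches it, and Usp18 removes it and also dampens receptor signaling. Isg15 stood at 13.7, 15.0 and 13.3 CPM in Control, 25.3, 53.1 and 41.7 in ASC, 15.2, 14.9 and 23.3 in A300, and 22.5, 32.9 and 37.01 in ASC300. Only A300 replicate 3 reached into the range of tumors with ASC, and the log2 fold change was 1.15 ± 0.19 (adjusted p = 0.00452). Herc6 stood at 15.0, 12.9 and 10.9 CPM in Control, 24.2, 24.5 and 18.2 in ASC, 8.36, 7.52 and 9.82 in A300, and 18.4, 20.3 and 19.6 in ASC300. The 4 groups formed 3 levels, with A300 below Control and both ASC groups together on top, and the log2 fold change over both iAs levels was 0.98 ± 0.11 (adjusted p = 0.000328). For Usp18 it was 1.12 ± 0.24 (adjusted p = 0.0299), and this call was lost without ASC replicate 2, A300 replicate 1 or 2, or ASC300 replicate 2 or 3, and with the replicate number as a block (adjusted p up to 0.0943).

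Among the 10 other effectors 7 were called. Bst2 (tetherin), which holds budding virus particles at the cell surface, was the most abundant member per length, with a median of 177 RPKM in tumors with ASC and 71.8 RPKM in those without. It stood at 59.6, 71.5 and 55.1 CPM in Control, 133.1, 180.0 and 175.3 in ASC, 67.3, 62.4 and 93.9 in A300, and 112.7, 152.8 and 166.8 in ASC300. The lowest tumor with ASC was above the highest without, and the log2 fold change was 1.17 ± 0.13 (adjusted p = 0.000242). Samhd1, which depletes the nucleotides that reverse transcription needs, stood at 164.9, 144.6 and 116.1 CPM in Control, 237.2, 231.5 and 229.2 in ASC, 132.2, 120.9 and 134.8 in A300, and 215.9, 234.8 and 251.6 in ASC300. Its change was small but even, at 0.79 ± 0.08 on the log2 scale (1.72-fold, adjusted p = 0.0001). Trim21, a cytosolic antibody receptor, stood at 7.23, 7.69 and 6.31 CPM in Control, 16.4, 16.6 and 12.3 in ASC, 6.93, 3.99 and 6.88 in A300, and 13.0, 14.8 and 13.7 in ASC300. Again the groups with and without ASC did not overlap, and the log2 fold change was 1.16 ± 0.15 (adjusted p = 0.000779).

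The other called effectors were Mx1 and Mx2, dynamin-like GTPases, Cmpk2, a nucleotide kinase, and Rsad2 (viperin). Mx2, like Oas1b above, is annotated as a polymorphic pseudogene. Their log2 fold changes were 1.13 ± 0.23 for Mx1, 1.14 ± 0.23 for Mx2, 1.08 ± 0.20 for Cmpk2 and 0.92 ± 0.21 for Rsad2, with adjusted p-values of 0.0212, 0.0182, 0.0111 and 0.0466. Cmpk2 kept its call throughout. Mx2 lost its call without Control replicate 3, ASC replicate 2 or ASC300 replicate 3 (adjusted p up to 0.0593), and Mx1 lost its call without ASC replicate 1 or 2, A300 replicate 1 or 2, or ASC300 replicate 2 or 3 (adjusted p up to 0.0657). Rsad2, the nearest to the threshold, lost its call in 13 alternatives (adjusted p up to 0.123), among them each fit that left out 1 tumor except Control replicate 2 and ASC replicate 3. Eif2ak2 (PKR), which halts translation, at 0.55 ± 0.09 (adjusted p = 0.00628) and Isg20, an exonuclease, at 0.49 ± 0.11 (adjusted p = 0.0359) passed on the p-value but changed by less than 1.5-fold. Trim30a was just short of the threshold, at 0.75 ± 0.17 (adjusted p = 0.0503).

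The remaining 7 members, whose antiviral roles are less defined, held the largest change. Xaf1 stood at 13.2, 11.7 and 9.33 CPM in Control, 31.0, 36.6 and 42.0 in ASC, 10.5, 10.02 and 12.5 in A300, and 26.7, 32.2 and 37.4 in ASC300. The tumors with and without ASC were far apart, and the log2 fold change of 1.61 ± 0.12 had the smallest p-value of all members (adjusted p = 1e-05). Ifi35 stood at 22.7, 22.8 and 19.7 CPM in Control, 43.5, 46.8 and 46.0 in ASC, 23.7, 24.9 and 26.2 in A300, and 37.3, 45.2 and 47.0 in ASC300. The tumors of a group lay close together, and the change was 0.93 ± 0.07 (adjusted p = 1.38e-05).

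Rtp4 stood at 17.1, 16.0 and 12.2 CPM in Control, 33.6, 51.9 and 40.7 in ASC, 13.5, 10.2 and 17.6 in A300, and 27.3, 34.0 and 39.4 in ASC300. Without overlap between tumors with and without ASC, it rose by 1.38 ± 0.16 (adjusted p = 0.000256). Ifi44 stood at 7.87, 9.17 and 6.46 CPM in Control, 17.4, 21.5 and 17.3 in ASC, 5.08, 2.90 and 6.06 in A300, and 11.8, 13.1 and 17.7 in ASC300. The change was 1.43 ± 0.18 (adjusted p = 0.000696), and each A300 tumor was below each Control tumor. Phf11d was called at 1.14 ± 0.17 (adjusted p = 0.00212), while Helz2 at 0.48 ± 0.11 (adjusted p = 0.0361) changed by less than 1.5-fold.

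Ifi27l2a was high in a single tumor. It stood at 40.8, 37.7 and 20.2 CPM in Control, 28.5, 136.5 and 33.0 in ASC, 27.5, 21.3 and 17.9 in A300, and 15.5, 28.2 and 26.3 in ASC300. Only ASC replicate 2 lay above the Control tumors. The log2 fold change of 0.54 ± 0.35 was not called (adjusted p = 0.656), and without ASC replicate 2 it was -0.01.

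**Figure D3:**
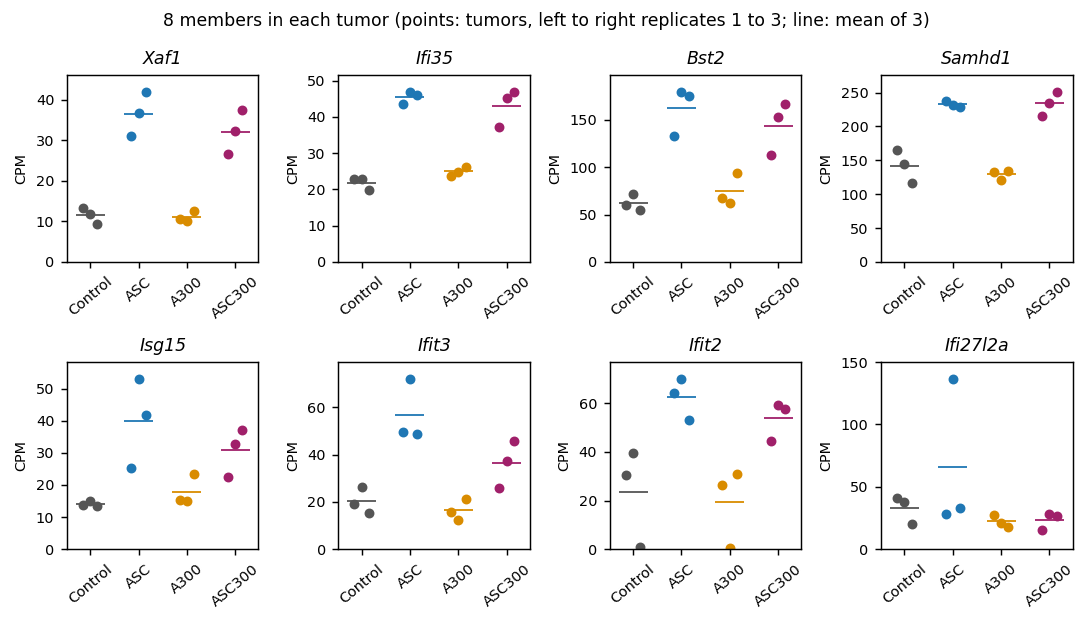
CPM of 8 members in each tumor, with points for replicates 1 to 3 from left to right and a line at the mean of 3 for Control, ASC, A300 and ASC300, on axes starting at 0. In Xaf1, Ifi35, Bst2 and Samhd1 all tumors with ASC lie above those without, in Ifit2 Control replicate 3 and A300 replicate 2 are listed near 0, and in Ifi27l2a ASC replicate 2 stands alone at 136.5 CPM.

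The same ASC effect was read at each iAs level, in comparisons that share no tumor. Both came from the same fit to the tumors of all groups, with a shared estimate of the spread. Their p-values and calls are therefore not independent of each other. Fewer members were called for ASC against Control when only the tumors compared were fitted, as given below. At 0 ppb, ASC against Control, 15 members were called higher, where 0.706% of all tested genes were, and 32 members did not overlap, where 9.94% of all genes did not. At 300 ppb, ASC300 against A300, 11 members were called (0.793% of all genes), and 31 did not overlap (11.3% of all genes). The members called at both levels were Bst2, Herc6, Ifi35, Ifi44, Oas3, Oasl2, Rtp4, Samhd1, Trim21 and Xaf1, 10 genes that made up 66.7% of the first list and 90.9% of the second. All 36 members were higher with ASC at both levels. The median log2 fold change was 1.20 at 0 ppb and 0.94 at 300 ppb, and 24 of the 36 were larger at 0 ppb. Over the 36 members, which share their libraries, Pearson's r between both sets of changes was 0.566. Neither r nor the overlaps of calls, here and below, are given for all tested genes. These values therefore do not set the members apart from other genes. Xaf1 rose by 1.68 ± 0.17 at 0 ppb (adjusted p = 0.00048) and by 1.55 ± 0.17 at 300 ppb (adjusted p = 0.000601).

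A further 11 members, among them Mx1, Mx2, Rsad2, Usp18 and Ifit1, were called over both iAs levels and in no comparison of 3 against 3 tumors. The counts depended on single tumors and on the tool, and are given without the shares of all genes. At 0 ppb it was 8 without Control replicate 3, 9 without ASC replicate 2 and 29 with DESeq2, and at 300 ppb 7 without A300 replicate 1, 6 without A300 replicate 2, 5 without ASC300 replicate 2, 4 without ASC300 replicate 3 and 22 with DESeq2.

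**Figure D4:**
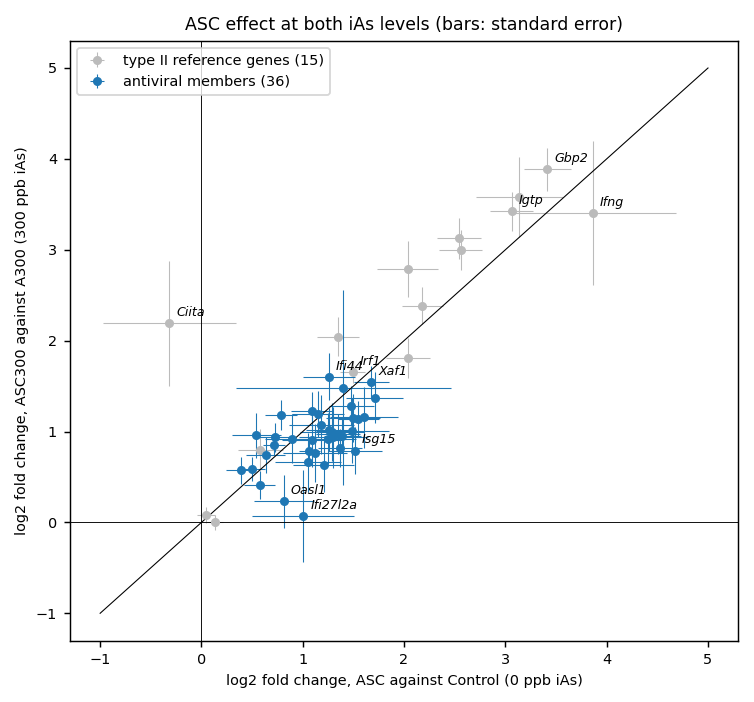
Log2 fold change of ASC300 against A300 (300 ppb iAs, vertical axis) against that of ASC against Control (0 ppb, horizontal axis) for the 36 members (blue) and the 15 type II reference genes (grey), with bars of 1 standard error and the line of equal change. All 36 members lie above 0 on both axes, 24 of them below the line, and most type II genes lie farther out.

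The combination was also compared with Control, the group that ASC and A300 were compared with. In ASC300 against Control 8 members were called higher (0.783% of all genes), with a median log2 fold change of 0.85, and all but Ifi27l2a had a positive value. The 7 members Bst2, Ifi35, Oas3, Oasl2, Rtp4, Samhd1 and Xaf1 were called in this comparison and in both above. Bst2, for example, changed by 1.39 ± 0.19 in ASC, 0.26 ± 0.18 in A300 and 1.22 ± 0.19 in ASC300 against Control. The count in ASC300 was 5 without Control replicate 2, Control replicate 3 or ASC300 replicate 2, 4 without ASC300 replicate 3 and 18 with DESeq2. These counts, too, are given without the shares of all genes.

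With iAs the members had mostly lower values, none of which passed the test. Over both ASC levels edgeR called 0 members and 0% of all genes. The median log2 fold change was -0.21, and 32 of 36 members were negative, where 11027 of 20818 genes were. The members share the 12 libraries, so their signs are not independent. At an unadjusted p-value under 0.05, 10 members were lower and 0 higher, where 8.46% of all tested genes were lower, a smaller share than among the members. These were Ddx60, Eif2ak2, Herc6, Ifi27l2a, Ifi44, Ifih1, Ifit1bl1, Ifit3, Ifit3b and Trim30a. The smallest p-values belonged to Ifit1bl1 at -0.80 ± 0.22 (adjusted p = 0.181, called by DESeq2 as the 1 member), Herc6 at -0.40 ± 0.11 (adjusted p = 0.183), Ifi44 at -0.57 ± 0.18 (adjusted p = 0.191), Ddx60 at -0.55 ± 0.18 (adjusted p = 0.198) and Ifi27l2a at -1.03 ± 0.36 (adjusted p = 0.212). Without ASC replicate 2, the Ifi27l2a value was -0.48 (adjusted p = 0.359), and Ifit1bl1 was called without ASC replicate 3. For the calls by DESeq2 and without ASC replicate 3, the shares of all genes are not given here.

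In tumors without ASC, A300 against Control, edgeR called 0 members, where 0.701% of all genes were called higher and 0.355% lower. DESeq2 called Ifi44 and Trim30a lower, and its share of all genes is not given here. The 5 members lower at an unadjusted p-value under 0.05 were Ddx60, Herc6, Ifi44, Ifih1 and Trim30a, where 13% of all genes were lower by this measure, a share close to that of the members. Herc6, Ifi44 and Ifit1bl1 did not overlap downward, where 15.4% of all genes did not, so that the members' share was below that of all genes. Herc6 was the nearest to a call, at -0.59 ± 0.16 (adjusted p = 0.0612). It was called in the fit without ASC replicate 3, whose share of all genes is not given here either. In the other direction, 1 of the 36 members, Ifi35, was higher in each A300 tumor than in each Control tumor, by 0.20 ± 0.10 (adjusted p = 0.261). By this measure 3022 of 20818 genes were higher, a larger share than among the members.

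In tumors with ASC, ASC300 against ASC, both edgeR and DESeq2 called 0 members, as edgeR did 0% of all genes. Negative values were seen in 34 of 36 members, with a median of -0.30, and in 10700 of 20818 genes. Of the members, 4 (Ifi27l2a, Ifit1bl1, Ifit3 and Ifit3b) had an unadjusted p-value under 0.05, where 1.74% of all genes were lower by this measure. A further measure was the count of members whose groups did not overlap, 8 lower (Ddx60, Ifi27l2a, Ifit1bl1, Ifit3, Ifit3b, Oas1a, Oas3 and Phf11d), where 3.91% of all genes did not overlap downward, and in both measures the share of all genes was below that of the members. Ifit3 changed by -0.65 ± 0.26 and Ifit1bl1 by -0.98 ± 0.31, both with an adjusted p of 1. The 2 tumors at the ends of this contrast were ASC replicate 2, the highest of the 6 tumors with ASC in 29 of 36 members, and ASC300 replicate 1, the lowest in 28.

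Whether the ASC effect differed between the iAs levels was tested by the interaction. It gave 0 calls among the members with edgeR and with DESeq2, and edgeR called 0% of all genes. At an unadjusted p-value under 0.05 there were 0 members. By this measure 1473 of 20818 genes were higher and 1363 (6.55%) lower, a larger share than among the members. The median difference of the ASC effect, 300 minus 0 ppb, was -0.26 on the log2 scale. The smallest p-values were those of Isg15 at -0.72 ± 0.37 (adjusted p = 0.403), Ifi35 at -0.27 ± 0.14 (adjusted p = 0.419) and Oas1a at -0.55 ± 0.30 (adjusted p = 0.435).

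The genes upstream of the members were read from fixed lists. Of the 15 listed genes for type I and type III interferons, 8 were at 0 counts in every tumor and 13 did not exceed 12 counts in any. This floor stands for 0.212 to 0.322 CPM depending on the tumor. Interferon genes outside the list were not read. Ifnb1 had 0 to 13 counts and Ifne, the only one that passed the filter, 0 to 16. Ifne had a log2 fold change of -0.01 ± 0.65 (adjusted p = 0.999), and the others were not tested. Ifng, the type II interferon, had 0 to 23 counts in the 6 tumors without ASC and 64 to 178 in the 6 with ASC, a log2 fold change of 3.63 ± 0.57 (adjusted p = 0.00385).

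Of the 4 receptor genes 3 passed the filter, and their changes were small. Ifnar1 had a log2 fold change of 0.17 ± 0.05 (adjusted p = 0.144) and Ifnar2 of 0.17 ± 0.07 (adjusted p = 0.341), and Il10rb was not called either. Of the transcription factors downstream, Stat2 rose by 1.16 ± 0.12 (adjusted p = 0.000126) and Irf9 by 0.69 ± 0.09 (adjusted p = 0.000711). The kinases did not pass, with 0.03 ± 0.08 for Jak1 (adjusted p = 0.941) and 0.04 ± 0.09 for Tyk2 (adjusted p = 0.939).

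Of 16 genes that drive or limit interferon production, 5 were called: the nucleic acid sensors Zbp1 (2.18 ± 0.16), Tlr9 (1.11 ± 0.24) and Tlr3 (0.91 ± 0.13), and the factors Irf7 (1.23 ± 0.20) and Irf5 (0.60 ± 0.10). Of 5 brakes on the pathway 1 was called, Socs1 at 1.10 ± 0.13 (adjusted p = 0.000312). In the other direction none of the pathway genes was called lower in the ASC effect.

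The members were then set beside 2 related lists. Of 39 other interferon-stimulated genes that passed the filter, 14 were called higher, with a median log2 fold change of 0.69. Of 15 type II reference genes 12 were called, with a median of 2.28, among them Gbp2 at 3.65 ± 0.17 and Igtp at 3.24 ± 0.15, GTPases of the interferon gamma response. The median of the antiviral members, 1.11, lay between both, and the difference between the lists was not tested. In the tumors, the median member was 0.61 to 1.56 above the Control mean on the log2 scale in the 6 with ASC and -0.50 to 0.22 in the 6 without. ASC replicate 2 was the highest of the tumors with ASC in 29 of the 36 members and 29 of the 39 other interferon-stimulated genes, but in 1 of the 15 type II genes. Among the tumors without ASC, A300 replicate 2 was the lowest in 18 members and Control replicate 3 in 17. Control replicate 1 was the highest of these tumors in 11 of the 36 members. It was so in 22 of the 39 other interferon-stimulated genes and 12 of the 15 type II genes. Its part in the medians of the lists was not tested.

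**Figure D5:**
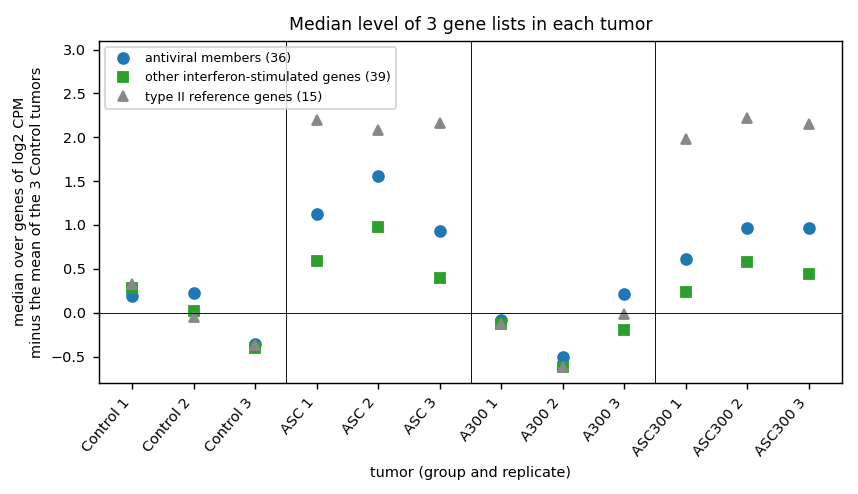
Median over the genes of 3 lists of log2 CPM minus the mean of the 3 Control tumors, for each tumor. The antiviral members (circles) reach 1.56 in ASC replicate 2 and 0.61 in ASC300 replicate 1, while the type II reference genes (triangles) stay between 1.98 and 2.22 in all 6 tumors with ASC.

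Some markers of immune cells were called higher in tumors with ASC. The summed levels of most lists overlapped, while those of the macrophage and epithelial lists did not. Leukocyte markers (6 genes, 2 called higher) summed to 455 to 578 CPM in the tumors with ASC and 264 to 492 CPM in those without, and macrophage markers (8 genes, Fcgr1 and C1qb called) to 1030 to 1420 CPM and 693 to 991 CPM. For T cell markers (7 genes, Cd8a called) the sums were 36.7 to 62.1 CPM and 10.4 to 66.7 CPM, for NK cell markers (5 genes, Klre1 called) 6.74 to 10.4 CPM and 3.13 to 8.02 CPM. The T cell sum of Control replicate 1 (66.7 CPM) was above all tumors with ASC, while the other tumors without ASC lay at 10.4 to 15 CPM. The median log2 fold changes of the leukocyte, macrophage, T cell and NK cell lists were 0.505, 0.343, 1.62 and 0.338. Neutrophil, B cell, plasma cell and plasmacytoid dendritic cell markers were not called, with median log2 fold changes of 0.04, -1.19, 0.26 and -0.70. Siglech was at most at 1.85 CPM, and none of the lists had a marker at 0 in every tumor. In the other direction, 1 of the 6 epithelial markers was called lower, Krt8, with a log2 fold change of -2.03 ± 0.34 (adjusted p = 0.00632). The median of the epithelial list was -0.319. Its sum, made up mostly of Krt8, was 25.5 to 47.1 CPM in the tumors with ASC and 64.7 to 361 CPM in those without. The part of these cells in the rise of the members was not tested. ASC replicate 2 had the highest macrophage sum (1420 CPM) and stromal sum (10100 CPM).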

How the data were processed

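Poly(A) RNA libraries of 12 tumors were sequenced in pairs with a stranded kit. The authors deposited whole-number counts per Ensembl gene. Per the submitters' processing notes and the paper, reads were trimmed (Cutadapt 1.1.0), aligned (HISAT2 2.0), assembled and quantified as FPKM (StringTie 1.3.4, Ballgown), while the step that gave whole-number counts, its use of strand, the genome build and the annotation are not given in the sources used here. Low counts were frequent at multiples of 4 (1137 to 1298 genes at 4 counts in a tumor, 618 to 795 at 3), so the floor was 12 counts, which covers counting error only. Symbols and lengths came from GENCODE M21.

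The counts were fitted with edgeR 4.0.16 (R 4.3.3) after filterByExpr and TMM normalization, with 1 mean per group over all 12 tumors, and quasi-likelihood F tests. CPM used TMM library sizes, and list medians of log2 CPM carry a prior count of 2. RPKM divides CPM by exon length. SE is the log2 fold change over the root of F. An exact test of single genes was not used. The procedure was tested on simulated data.

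The members and all lists were chosen with earlier results of these data known. Values in every tumor are given for the 10 called members with the smallest p-value, the 5 smallest in the iAs effect, the 3 smallest in the interaction and the paralog pairs, and for Ifit2, chosen after its values were seen. Alternatives were DESeq2 1.42.0, its size factors, other filters, counts divided by 4, no minimum fold change, summed paralogs, only the 6 tumors compared, a replicate block, and leaving out each tumor. RefSeq windows were checked against GENCODE transcripts, and 26 of 33 matched after the start. One gene of the lists is not reported here.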

Additional observations from a re-analysis of the deposited data

How the results depend on the processing

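With both iAs levels joined, the number of members called for the ASC effect lay between 25 and 30 under the settings that kept all tumors and between 19 (without ASC300 replicate 3) and 28 when 1 tumor was left out, and 19 members were called under every alternative. Of the comparisons of 3 against 3 tumors, DESeq2 called 29 members for ASC against Control instead of 15, 22 for ASC300 against A300 instead of 11, 18 for ASC300 against Control instead of 8, 2 for A300 against Control and 1 for the iAs effect instead of 0. With only the 6 tumors compared in the fit, ASC against Control gave 8. Leaving out each tumor in turn gave 8 to 16 for ASC against Control, 4 to 15 for ASC300 against A300, 4 to 10 for ASC300 against Control, and 0 to 1 for both A300 against Control and the iAs effect (Herc6 and Ifit1bl1, each without ASC replicate 3). Among 876 values of single members under the alternatives 802 kept direction and call, 54 lost the call, 19 gained it and 1 reversed: Ifi27l2a in the ASC effect, at -0.0118 without ASC replicate 2 (highest 0.722, without ASC replicate 1). The causes were not tested. The shares of all genes called under these alternatives are not given here or above. The counts therefore do not tell a change of the members from one in all genes. A fit with the replicate number as a block called 25 members in the ASC effect, 12 for ASC against Control, 10 for ASC300 against A300 and 6 for ASC300 against Control, but the numbers did not pair the tumors: of 18 pairs with the same number 2 had a correlation over 0.1 (-0.124 to 0.172), and 3 of 12 tumors matched best with their own number. Most of the listed interferon genes were at or under the floor, and the part of depth in this was not tested.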

Other observations

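Among the other interferon-stimulated genes, the Schlafen and Ifi200 families are growth regulators and DNA-binding proteins encoded in clusters. Of the tested Schlafen genes, Slfn1 (1.06 ± 0.19, adjusted p = 0.00963), Slfn2 (0.78 ± 0.10, adjusted p = 0.000509) and Slfn8 (1.13 ± 0.21, adjusted p = 0.0138) rose in the ASC effect over both iAs levels, while Slfn3, Slfn4, Slfn5 and Slfn9 were not called, with log2 fold changes of 0.16 ± 0.54, 0.44 ± 0.38, 0.54 ± 0.21 and 0.38 ± 0.10. Of the Ifi200 family, Ifi203 (1.01 ± 0.22), Ifi204 (1.08 ± 0.20) and Ifi211 (1.06 ± 0.14) rose, with adjusted p-values of 0.0323, 0.0114 and 0.00083, and Ifi205, Ifi207, Ifi208, Ifi209, Ifi213 and Mndal did not pass, at 0.07 to 0.88. Ifitm1, Ifitm2 and Ifitm3, which block virus fusion, were at -0.14 ± 0.17, 0.16 ± 0.16 and 0.51 ± 0.10, none at 1.5-fold.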
